A study of Mus musculus with 2 samples.

Results

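The wild-type regulatory T cell (Treg) pools of this series are the Cy3 (green) channels of its 2 two-colour arrays, which make up 2 of the 4 channels measured. They were chosen by genotype label, with no use of the measured values. Each array set Bcl11b-deficient Treg RNA in Cy5 against wild-type Treg RNA in Cy3. The 1 array belongs to mice in which Cd4Cre deletes floxed Bcl11b, and the other to mice in which Foxp3Cre deletes it.

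The first pool came from 3 wild-type mice and was sorted as Foxp3-Gfp+ cells, that is, on a green fluorescent reporter of Foxp3. It is called the Foxp3-GFP pool. The other pool also came from 3 wild-type mice and was sorted as Treg cells, but its label names no reporter and no sorting marker; it is called the other pool. Both carry the genetic background C57BL\6, no treatment is given, and the labels give neither the age nor the sex of the mice nor the organ. With 1 pool per group there was no replicate of either, so no difference below carries a test. Slide, scan, software version, reporter and mice all changed together between the pools and cannot be told apart.

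Tregs are CD4 T cells that restrain other immune cells. The transcription factor Foxp3 marks the lineage, and Tregs keep high levels of the interleukin 2 receptor and of inhibitory receptors such as Ctla4, and can secrete the suppressive cytokine Il10. Sorting enriches such cells but does not always remove other blood cells or RNA released from damaged tissue, so markers of other cell types were read beside those of Tregs.

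Each gene was read by a 60-base probe. The first 30 bases are shown for 5 probes on which the description turns, with mm9 positions of the whole probe as the files give them; no part is capitalised, because the whole stretch is what hybridises. They are the lineage factor Foxp3 at chrX:7172158-7172217, the neutrophil protein S100a9 at chr3:90496585-90496644, the B cell gene Ms4a1 at chr19:11325367-11325426, salivary amylase Amy1 at chr3:113259010-113259069, and the X inactivation RNA Xist at chrX:100658920-100658979.
Foxp3: cagttcctttgtgtccgacaagatctggta
S100a9: ctgcccaaccaagtctaaagggaatggctt
Ms4a1: gctgtgctttgagattctttccaaatggca
Amy1: actggtcttcctgctggcacatactgtgat
Xist: caccacctaataataattttaccatgctat

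Of the gene-probe spots, 56.3% were well above background in the Foxp3-GFP pool and 54.0% in the other pool, and no spot was saturated. The level of the 153 negative control spots differed, with a median signal of 207 on the Foxp3-GFP array and 83.3 on the other, which compresses differences at dim spots. Repeated spots of 1 probe gave a median SD of 0.078 for the log2 difference between the pools (125 probes, up to 10 spots each), which covers spotting error only. Probes of 1 gene differed more, with a median range of 0.54 over 4804 genes.

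The pools shared most of their detected transcripts. Of 27968 genes with a probe, 15521 were detected in the Foxp3-GFP pool and 15078 in the other, and 14120 in both, 85.7% of the 16479 genes detected in at least 1. Across the genes detected in both, log2 scaled signals had a Pearson r of 0.925 and signals a Spearman rho of 0.920; the points share array design and probe sequence, and genes are not independent replicates. The median size of the difference was 0.44 in log2. All values below are log2 signals after quantile scaling, and differences are Foxp3-GFP pool minus other pool.

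Over all genes detected in at least 1 pool, 1422 (8.63%) were at least 2-fold higher in the Foxp3-GFP pool and 1352 (8.2%) at least 2-fold lower. These percentages are the background for each list count below. Among genes detected in both pools the shares were 9.35% and 7.92%. With arrays scaled to their medians in place of quantile scaling, 599 were higher and 3984 lower, so that higher genes were 13.1% of those 2-fold apart against 51.3%, and the median of all genes moved to -0.46. At a 4-fold threshold 181 genes (1.1%) were higher and 338 (2.05%) lower. Where a gene had several probes detected in both pools, all its probes had the same sign for 73.3% of the 667 genes that were 2-fold apart, and for 55.6% of the 4137 others.

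**Figure D1:**
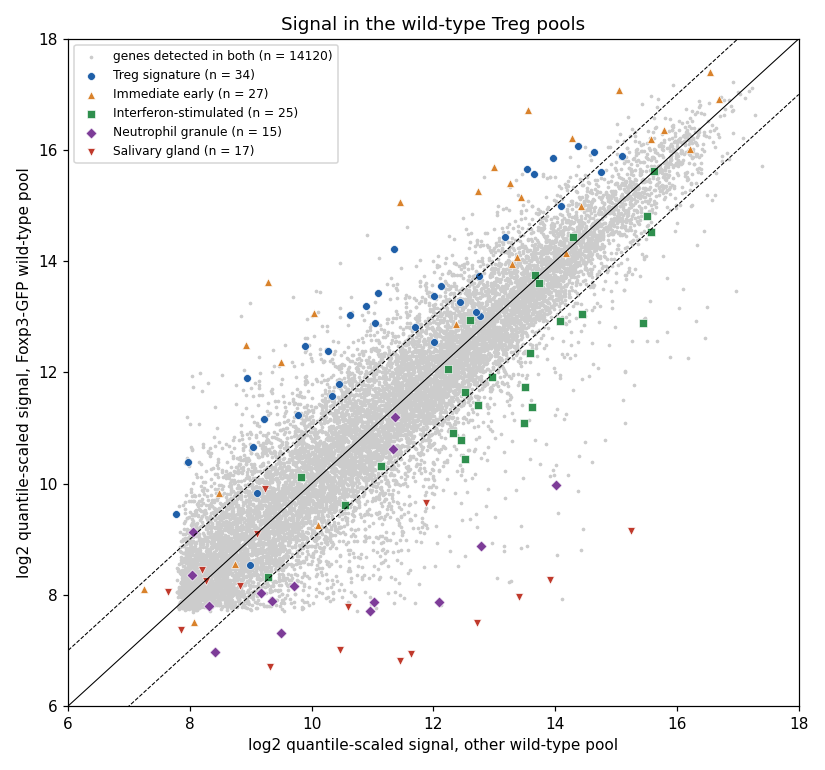
Each point is a gene: its log2 quantile-scaled signal in the other wild-type pool (x axis) against the Foxp3-GFP wild-type pool (y axis). Grey points are the 14120 genes detected in both pools, coloured points are members of 5 lists detected in at least 1 pool, the solid line marks equal signal and the dashed lines a 2-fold difference. Treg signature and immediate early genes lie mostly above the line, and interferon-stimulated, neutrophil and salivary gland genes mostly below it.

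Treg signature genes were brighter in the Foxp3-GFP pool. All 34 genes of the list that had a probe were detected in at least 1 pool: 24 exceeded 2-fold towards the Foxp3-GFP pool, none did so towards the other, and the median was 1.44 (0.82 under median scaling), against 0.00 over all detected genes. Their summed signal was 2.61 times that of the other pool. In bulk RNA, fewer cells of a type and less RNA per cell cannot be told apart.

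The Foxp3 probe read 12.47 in the Foxp3-GFP pool and 9.90 in the other, 5.94-fold apart. Its spot stood at the 72.7th percentile of the detected genes of the first array and at the 36.0th of the second, a reading that needs no scaling between arrays. Ctla4, which withholds costimulation from other T cells, had 13.19 and 10.88, and moved from the 81.2th to the 49.4th percentile. Both genes were therefore dimmer in the pool with no named reporter, by scaled signal and by rank.

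Il10 had a log2 signal of 11.90 in the Foxp3-GFP pool and 8.94 in the other, 7.74-fold apart and the widest gap in the list. The integrin Itgae, which binds E-cadherin on epithelium, had 14.21 and 11.35, and its probes agreed (2.82 and 2.87). The receptor Klrg1 of terminally differentiated Tregs had 13.03 and 10.62, and the chemokine receptor Ccr8 10.39 and 7.97. These genes mark activated or tissue Tregs, and each was over 5-fold brighter in the Foxp3-GFP pool. The orphan receptor Gpr83 differed by 1.89, the neuropilin gene Nrp1 by 1.94 (probes from 0.65) and the phosphatase Dusp4 by 2.34. Ikzf4, which encodes Eos, was detected by its brightest probe only in the Foxp3-GFP pool, at least 3.19-fold higher there.

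Other members differed less. Ikzf2, which encodes Helios, had 13.27 and 12.44, a difference of 0.83 by its brightest probe, while its 5 detected probes ranged from 0.83 to 1.96. Tnfrsf18, the GITR gene, differed by 0.80, Swap70 by 0.39 and Ebi3, a subunit of interleukin 35, by 0.24. The only member below 0 was Gpr15, a colon homing receptor, at -0.45. The receptor chain Il2ra differed by 1.84 (12.89 and 11.05), but its 4 detected probes ranged from -0.05 to 1.84.

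The interleukin 2 and STAT5 axis, on which Tregs depend for survival, followed the same side. Of 15 detected genes, 7 exceeded 2-fold towards the Foxp3-GFP pool and none towards the other. The median was 0.85, which was 0.09 under median scaling. The kinase gene Pim1, a STAT5 target, had 13.71 and 11.30, 5.29-fold apart. Jak3, which signals from the shared cytokine receptor chain, differed by 1.73, and the feedback inhibitor Cish by 1.69. Jak1 was at 0.01, with 3 probes between -0.07 and 0.39, and Pim2 at -0.31. Il2ra (1.84), Il2rb (1.69) and Socs2 (1.25) are members of both this list and the Treg signature. All of them are among the 7, so the lists are not separate results.

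Immediate early genes, which are transcribed within minutes of a stimulus and can also respond to cell handling, held the largest difference towards the Foxp3-GFP pool in any list but the sex-linked one. Of 27 detected members, 13 exceeded 2-fold towards the Foxp3-GFP pool and none towards the other, and the median was 0.85 (0.52 under median scaling). The AP-1 gene Fosb had 13.62 and 9.28, 20.2-fold apart, and moved from the 85.8th to the 27.4th percentile. Klf4 had 15.06 and 11.45, and Atf3 12.49 and 8.92. These transcription factor genes were each over 11-fold brighter in the Foxp3-GFP pool.

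Tnfaip3, the A20 gene that limits NF-kappaB, had 16.72 and 13.56, which placed it 25th among the genes detected on the first array and 2288th on the second. Nr4a1, a reporter of antigen receptor signalling, had 17.08 and 15.05, and Fos 15.69 and 12.99. Not every member took part: Egr1 differed by 0.65, Egr2 by 0.51, Btg2 by -0.04, Dusp2 by -0.20 and Egr3 by -0.85. The probes of Zfp36, which encodes an RNA decay factor, disagreed, with values of -0.98 and 2.16.

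**Figure D2:**
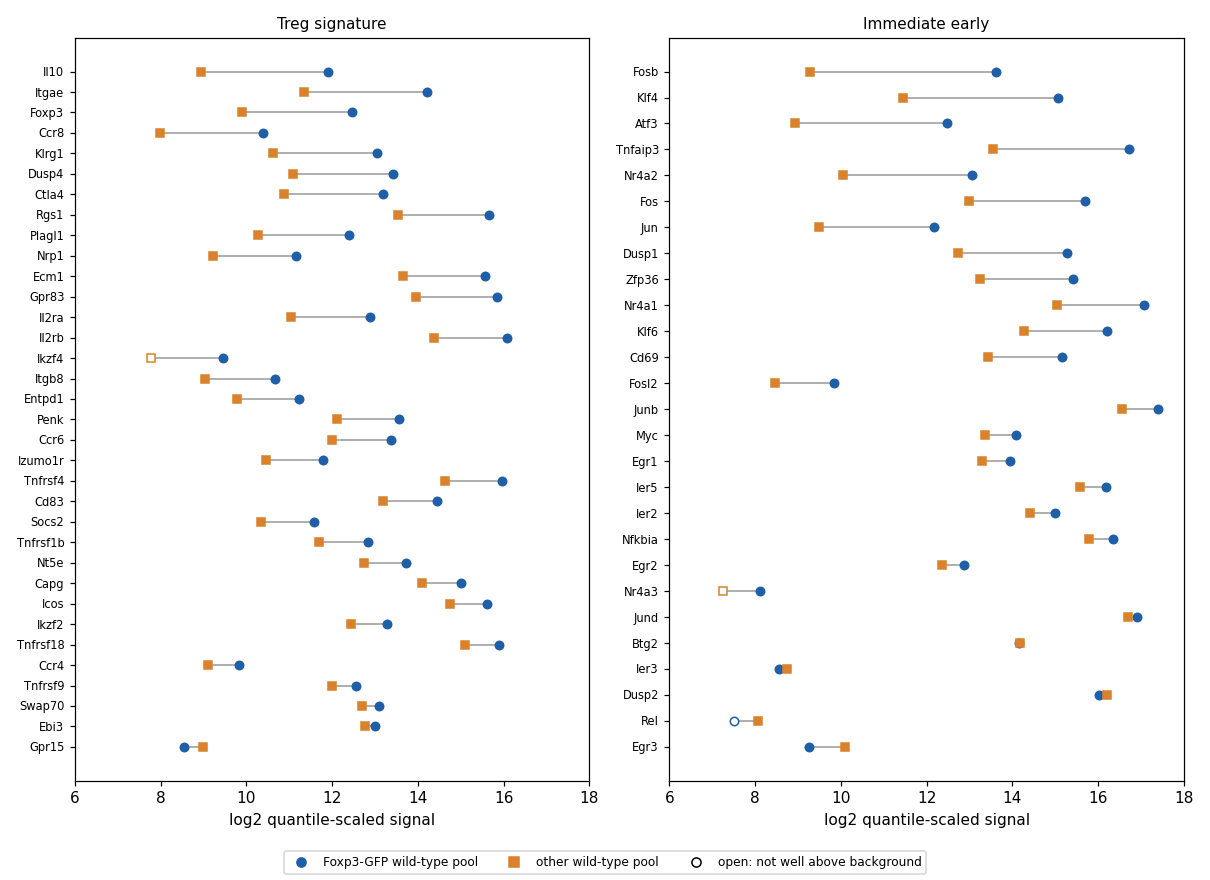
Log2 quantile-scaled signal (x axis) of each detected member of the Treg signature (left) and immediate early (right) lists, ordered by difference; circles are the Foxp3-GFP pool, squares the other pool, open symbols are not well above background. Of 34 Treg signature genes 33 lie to the right in the Foxp3-GFP pool, from Ebi3 at 0.24 to Il10 at 2.95, and the widest gap among immediate early genes is that of Fosb at 4.33.

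Interferon-stimulated genes went the other way. Type I interferon acts through transcription factors, Stat2 and Irf9 among them, that bind a short element in the promoters of antiviral genes. All 25 members were detected in both pools: 13 were at least 2-fold lower in the Foxp3-GFP pool, none was at least 2-fold higher, and the median was -1.04 (-1.74 under median scaling). Ifit3, which binds foreign RNA caps with its relatives, had 12.88 in the Foxp3-GFP pool and 15.44 in the other, 5.91-fold apart. Oasl2 had 11.08 and 13.49, and Rsad2, the viperin gene, 10.44 and 12.51, with 3 probes between -2.07 and -1.96. The other pool was the brighter for each. The factor genes Irf9 and Stat2 differed little, at 0.08 and 0.35.

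The core of that element, GAAA followed by any 2 bases and GAAA again, was searched on both strands in RefSeq windows of GRCm38.p6 from 250 bases before to 50 bases after each start site. It occurred in 11 of the 19 members with a window (57.9%) and in 3.99% of all 27025 genes with one. Stretches around the match are shown for 3 genes that were lower in the Foxp3-GFP pool and 2 that were not 2-fold apart, with the match in capitals. They are Ifit3 at chr19:34583348-34583407 and Ifit1 at chr19:34640760-34640819 on the plus strand, Rsad2 at chr12:26456538-26456597 on the minus strand, Gbp2 at chr3:142620579-142620638 on the plus strand and Isg15 at chr4:156200862-156200921 on the minus strand.
Ifit3: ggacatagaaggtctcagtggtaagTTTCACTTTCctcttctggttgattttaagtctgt
Ifit1: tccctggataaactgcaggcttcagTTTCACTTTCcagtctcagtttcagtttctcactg
Rsad2: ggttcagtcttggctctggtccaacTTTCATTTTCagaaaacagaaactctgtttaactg
Gbp2: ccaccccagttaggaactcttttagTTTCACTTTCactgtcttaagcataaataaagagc
Isg15: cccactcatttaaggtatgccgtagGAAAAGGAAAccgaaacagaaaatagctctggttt
Ifit1 differed by -2.25 between the pools, Gbp2 by 0.14 and Isg15 by -0.12. Members with and without the match were not compared, so a link between match and difference was not tested. The match is a description of sequence and shows no binding. The cAMP response element TGACGTCA, searched in the same way, occurred in 2 of the 22 immediate early genes with a window, Dusp1 and Btg2, and in 2.03% of all genes.

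Of 17 detected pan T cell genes 15 were within 2-fold, and the median was 0.03. That share is near the 83.2% of all detected genes, a figure that counts bounds under 2-fold as within. Cd3d differed by -0.05, Cd6 by 0.03, the kinase gene Zap70 by 0.08 and Cd5 by 0.13. Thy1 was lower at -1.05 and Cd3e higher at 1.29, but probes of both disagreed (-1.05 and 0.30 for Thy1, -0.32 and 1.29 for Cd3e). Cd4 had 10.55 and 9.69 by its brighter probe, and its other probe differed by 0.05. Bcl11b, the gene deleted on the other channel of these arrays, had 15.13 and 14.50 by its brighter probe, a difference of 0.63; its other probe differed by 2.17.

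Of 22 detected naive and conventional CD4 genes 19 were within 2-fold, again near the share of all genes, 3 were at least 2-fold higher in the Foxp3-GFP pool and none was lower, with a median of -0.08. The survival receptor Il7r differed by -0.01 and Ccr7, which guides T cells into lymph nodes, by -0.25. Bach2, a repressor of effector fate, was higher at 1.38 and Il6ra at 1.16, while Dapl1 (-0.91) and the T cell factor Lef1 (-0.88) were the lowest. Homing receptors as a list had a median of -0.14, with Itgae, Ccr8 and Ccr6 as the 3 of 22 that were at least 2-fold higher.

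Effector lists were mixed. Of 11 detected Th1 genes, Ifng (13.75 and 12.31) and Il12rb1 (13.02 and 11.74) were at least 2-fold higher in the Foxp3-GFP pool, the chemokine Ccl5 was lower (13.83 and 15.21), and Tbx21, the T-bet gene, differed by -0.10. Among Th2 genes Il1rl1, the interleukin 33 receptor of tissue Tregs, had 11.84 and 9.13, but its other probe differed by -0.12. Of 9 detected Th17 genes, Rora, Ahr and Ccr6 were at least 2-fold higher and Il21 at least 2-fold lower, at -1.51.

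Cytotoxic and CD8 genes were brighter in the other pool. Cd8a had 9.95 in the Foxp3-GFP pool and 11.96 in the other, with 3 probes between -2.02 and -1.31, and Cd8b1 had 13.96 and 15.09. Among the 20 NK and cytotoxic transcripts detected, 4 lay 2-fold or more towards the other pool and none towards the Foxp3-GFP pool (median -0.58). Granzyme A (Gzma) was the lowest, with 9.10 and 11.84, while granzyme B (Gzmb) was at 0.91 and perforin (Prf1) at 0.25. Granzymes and the Klr receptors are families of related sequence, so their probes are uncertain.

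B lineage genes were brighter in the other pool as well. Of 22 B cell genes, 21 were detected, all in both pools; Pax5 was below background in both. Of these 10 were at least 2-fold lower in the Foxp3-GFP pool, none was at least 2-fold higher, and the median was -0.98 (-1.695 under median scaling). Ms4a1, the CD20 gene, had 12.31 and 14.32, 4.04-fold apart, and the antigen receptor chain Cd79b 13.25 and 14.68. Cd79a (-0.33) differed less, and the 3 probes of Ighm ranged from -2.31 to 0.28. Summed over the list, the other pool had 1.34 times the signal. The largest term of that sum is the brightest Ighm probe (16.67 and 16.39), which went against the list at 0.28. The plasma cell genes Jchain (12.91 and 14.71) and Tnfrsf17 (8.24 and 10.42) were lower in the Foxp3-GFP pool, while Prdm1, which Tregs also use, was at 0.97. Of 10 MHC class II presentation genes 4 were at least 2-fold lower, led by H2-Ab1 at -1.45.

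Neutrophil granule genes were among the widest apart. Of 18 genes with a probe, 15 were detected, all in the other pool and 12 in the Foxp3-GFP pool; Elane, Prtn3 and Mmp8 were below background in both. Of the detected genes 9 lay 2-fold or more towards the other pool and 1, Mmp9, towards the Foxp3-GFP pool, and the median was -1.47. The calprotectin subunits S100a8 (7.88 and 12.10) and S100a9 (9.97 and 14.02) were 18.6-fold and 16.5-fold lower in the Foxp3-GFP pool. Camp, an antimicrobial peptide gene, was detected only in the other pool and was at least 9.46-fold higher there. Chil3 differed by -3.91, but has near-identical relatives. S100a8 stood at the 4.06th percentile of the first array and the 66.4th of the second.

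Monocyte and macrophage genes did not move as 1 group. Of 21 detected genes 6 exceeded 2-fold towards the Foxp3-GFP pool and 2 towards the other, and the median was 0.52, a value that was -0.02 under median scaling. Lyz2, the myeloid lysozyme gene, had 13.50 and 16.10, but its other probe differed by -0.56. Cd14 (11.63 and 9.35), the iron exporter Slc40a1 (13.97 and 12.18), Vcam1 (14.27 and 12.69) and the complement genes C1qa (1.29) and C1qb (1.16) were brighter in the Foxp3-GFP pool. Slc40a1, Vcam1 and the C1q genes are known from resident macrophages, and Lyz2 is also high in granulocytes. Other macrophage genes were lower or near level, with Marco at -0.60, Fcgr1 at -0.50 and Mrc1 at 0.18. Over the list 14 genes were above 0 and 7 below. The cell source of these transcripts was not tested. Markers of dendritic cells had a median of -0.45, and 3 of 14 lay 2-fold or more towards the other pool, including Siglech (-1.73) of plasmacytoid cells.

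Salivary gland genes had the lowest median of the lists when bounds were counted. Of 23 genes with a probe, 17 were detected: 16 in the other pool and 10 in the Foxp3-GFP pool. Of these 10 lay 2-fold or more towards the other pool and none towards the Foxp3-GFP pool. Amy1 had 9.15 and 15.25, 68.6-fold apart, with probes at -6.10 and -6.34, and stood 522nd among the genes detected on the second array. Bpifa2, a parotid secretory protein gene, had 8.27 and 13.91. Amylase genes are near-identical copies, so the probe does not settle which is read. Dnase1, Smr3a and Car6, carbonic anhydrase of saliva, were detected only in the other pool, at least 32.7-fold, 15.5-fold and 13.7-fold higher there. The list median of -2.23 was -0.67 over the 9 members detected in both pools. The 7 members not called 2-fold apart included Lpo (-0.67), Egf (-0.01), Dcpp1 (0.00), Dcpp3 (0.24) and Slc12a2 (0.68). The remaining ones were Dcpp2 (-0.17, detected only in the other pool) and Aqp5 (0.29, detected only in the Foxp3-GFP pool). Their values are bounds, so a difference of 2-fold or more cannot be told from a smaller one. A further 6 genes, among them Smgc, Prol1 and Mucl2, were below background in both.

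Erythroid genes were mostly brighter in the other pool: of 8 detected genes 6 were at least 2-fold lower in the Foxp3-GFP pool, among them the band 3 gene Slc4a1 (8.20 and 11.44) and Hba-a1 (12.85 and 14.47), whose alpha globin copies share sequence. The erythroid factor gene Gata1 went the other way, with 9.90 and 8.83. The part of B, neutrophil, erythroid, cytotoxic and salivary RNA in the Treg signature difference was not tested.

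Most cell cycle genes were lower in the Foxp3-GFP pool. Of 34 detected genes 30 were below 0 and 6 were 2-fold lower or more, none 2-fold higher, and the median was -0.57 (-1.29 under median scaling). Of the members 28 were within 2-fold, so the share 2-fold lower (6 of 34) stood over a background of 8.2%. The mitotic kinase gene Aurkb had 9.06 and 11.15, and Top2a, a topoisomerase of dividing cells, 10.45 and 11.71. Mki67, the usual proliferation marker, differed by -0.30 and the sliding clamp gene Pcna by 0.17.

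Lists of general cell function differed in how close they were. Of 80 detected ribosomal protein genes 76 were within 2-fold, with a median of 0.16 that was -0.34 under median scaling, and all 42 detected proteasome subunit genes were within 2-fold, with a median of -0.15. Of 15 housekeeping genes 12 were within 2-fold. Eef1a1 was higher in the Foxp3-GFP pool at 1.24, and Ywhaz (-1.08) and Actb (-3.40) were lower. That Actb probe is placed on chromosome X, and whether it reads Actb itself was not tested. Of 15 glycolysis genes 14 were within 2-fold. The glucose transporter Slc2a3 was the exception at 1.46. Its other probes were detected only in the Foxp3-GFP pool and give bounds of at least 0.11 and 0.25. Aldoa differed by -0.84 and Tpi1 by -0.06. S100, annexin and galectin genes of effector memory cells were all within 2-fold (15 of 15), between -0.97 for Lgals1 and 0.85 for S100a11. This held although S100a8 and S100a9 of the same family were over 16-fold apart.

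Sex-linked transcripts set the pools apart. Xist, which coats the inactive X chromosome and is made by female cells, had 14.11 in the Foxp3-GFP pool and was not well above background in the other (7.27), at least 81.4-fold apart; all 4 of its detected probes were detected in the Foxp3-GFP pool only. The Y-linked genes Eif2s3y (12.34 and 13.52) and Kdm5d (10.74 and 11.58) were detected in both pools and were lower in the Foxp3-GFP pool. Ddx3y had 12.12 and 12.18, but another of its probes was detected only in the other pool, with a bound of -2.32. The Foxp3-GFP pool therefore held both Xist and Y-linked signal, and the other pool Y-linked signal without Xist.

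The brightest spots were partly shared. Of the 10 brightest genes of each pool 4 were in common, of the 100 brightest 49, and of the 500 brightest 375. Spot brightness depends on the probe as well as on the transcript, so an order of spots within an array is not an order of transcript abundance. The MHC class I genes H2-D1 (17.01 and 17.04) and H2-K2 (17.06 and 17.18) and the T cell receptor modulator Cd6 (17.04 and 17.01) were among the 10 brightest in both. Class I genes are near-identical and their probes uncertain. Ptprz1 (17.11 and 17.23) was the remaining shared gene, but its other probe read 7.13 and 7.87 and was detected only in the other pool. The AP-1 gene Junb was the brightest gene of the Foxp3-GFP pool (17.40 and 16.55), and Ptms, which encodes parathymosin, that of the other pool (15.72 and 17.40), although the other probe of Ptms differed by 0.28.

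**Figure D3:**
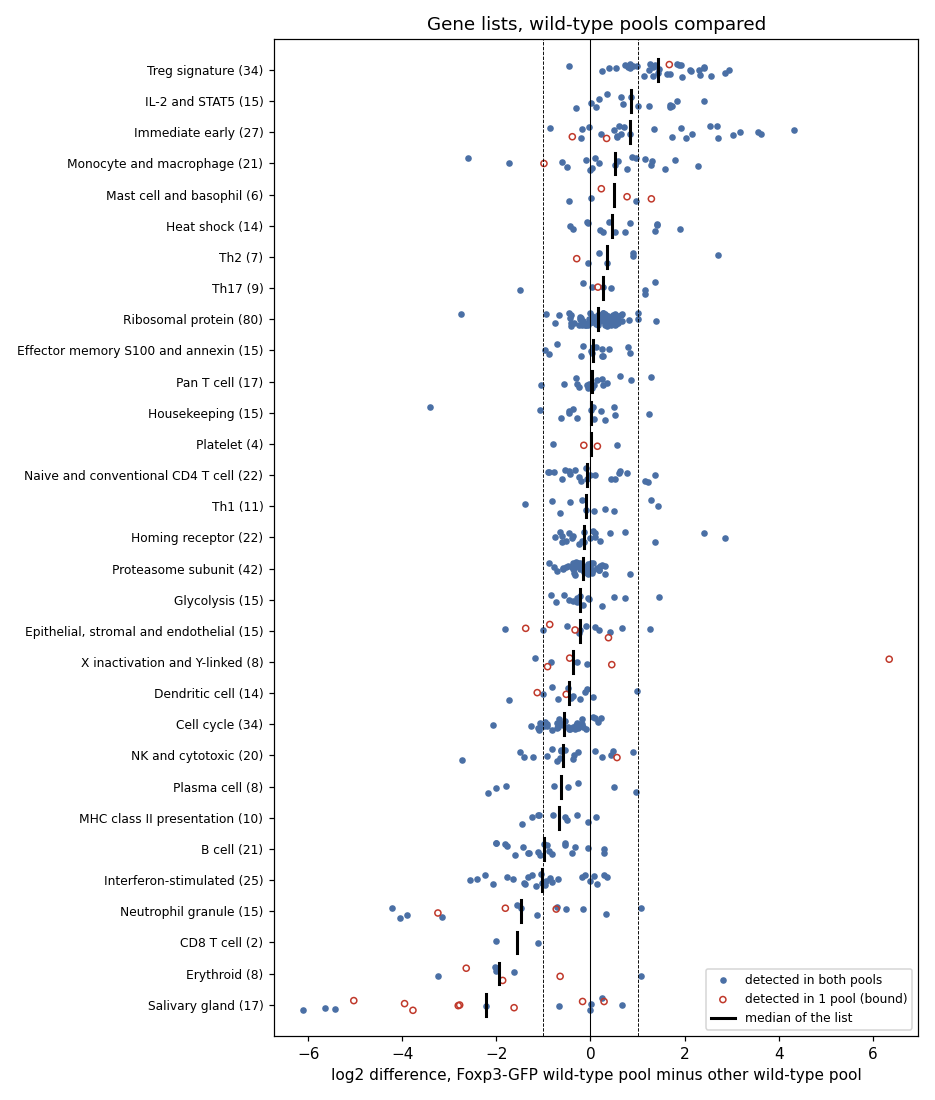
Log2 difference of each detected gene (x axis, Foxp3-GFP pool minus other pool) for 31 gene lists, with the number of detected genes in brackets; filled points were detected in both pools, open points in 1 pool and are bounds, bars are list medians and dashed lines mark 2-fold. Medians run from -2.23 for salivary gland genes to 1.44 for the Treg signature, and most lists of general cell function sit near 0.

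The direction of the main lists held across the other ways of processing, though not their size. Median scaling, which moved the median of all genes to -0.46, gave the lowest values for most lists; the Treg signature stayed between 0.82 and 1.63 and the B cell list between -1.695 and -0.95.

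**Figure D4:**
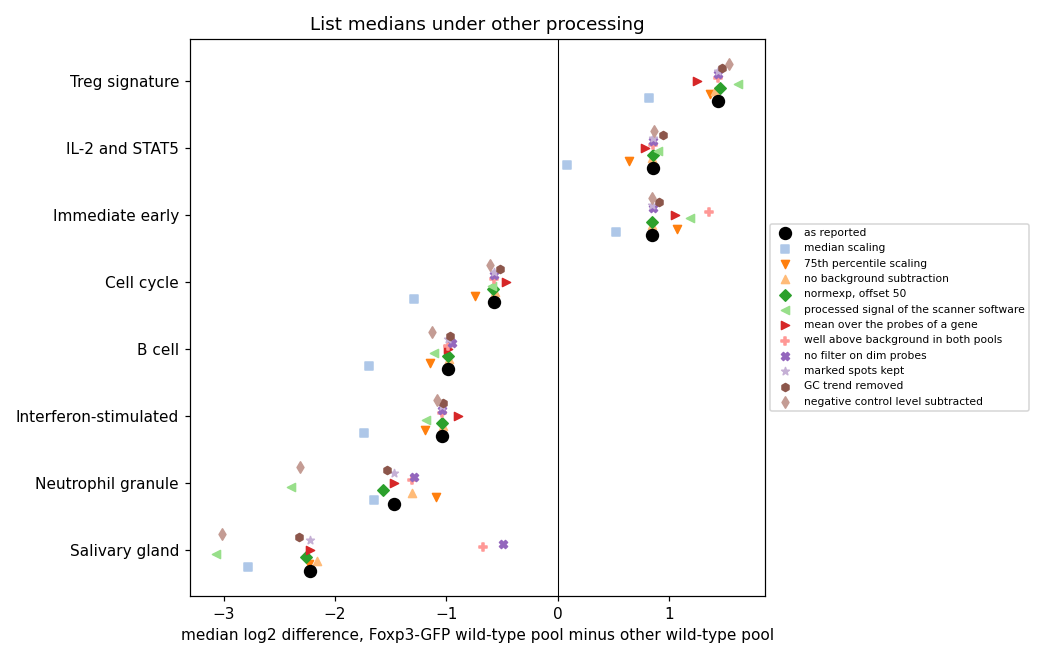
Median log2 difference (x axis, Foxp3-GFP pool minus other pool) of 8 gene lists as reported (large black circles) and under 11 alternatives of scaling, background, probe choice and filter. Each list stays on its side of 0, with IL-2 and STAT5 closest to it at 0.09 under median scaling and the salivary gland list ranging from -3.07 to -0.49.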

How the data were processed

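Amplified RNA was labelled by the Kreatech ULS method and hybridised to arrays of 1 Agilent design, per the labels' protocols. The scanner images went through Agilent Feature Extraction 10.5.1.1 (Foxp3-GFP array) and 10.7.3.1 (other array), per the file headers; the submitters' processing notes name 10.5.1. The authors deposited mean spot and median local background intensity for each channel, with the software's processed intensity and flags.

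From the green channel, background was subtracted (gMeanSignal minus gBGMedianSignal) at 43379 gene-probe spots, outlier spots (77 and 85) were left out, spots of a probe were averaged over 41174 probes, the arrays were quantile scaled and log2 was taken. For each gene the probe with the highest mean over the arrays was used, and the gene counted as detected where the software marked it well above background. For a gene detected in 1 pool, the fold is a bound: the bright signal over the dim one, or over the dim pool's detection floor (its lowest detected signal) where that is higher. Probes were named through a RefSeq table of GRCm38.p6, used for names only (25001 by accession, 5960 by symbol, 1767 by synonym, 8446 left as in the file). The limma package 3.58.1 (R 4.3.3) gave normexp; other steps used pandas 2.3.3. The steps were checked on simulated signals. Samples were grouped by source label; with 1 pool per group no test was possible, and lists are described by counts at 2-fold and medians beside the background over all genes. Members and lists were chosen with earlier results of these data known. Named genes are the 10 brightest of each array, the 12 widest apart in each direction, the 8 largest bounds, 4 widest and 2 closest members of each list, and 6 fixed genes; others from the lists are named with their values for context and were picked after these were seen. Not every gene the rule selects is described, and some list members are counted but not reported here by name. Alternatives covered scaling, background, probe choice, filters, marked spots and probe GC content. The arrays' number limits the precision.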

Additional observations from a re-analysis of the deposited data

How the results depend on the processing

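In all, 11 alternatives were tried; 1, subtraction of the negative control level, was chosen after seeing the data. No paired analysis was possible because each group holds 1 pool. Of 122 named genes at least 2-fold apart, many chosen for being widest apart, none changed sign, but only 103 stayed 2-fold apart under median scaling, 111 with the mean over probes, 112 with the GC trend removed, 116 under 75th percentile scaling and 120 without background subtraction. With signal required in both pools 102 could be measured. That filter leaves their values unchanged, so it is no check on their size. Under median scaling 599 genes were 2-fold higher and 3984 lower in the Foxp3-GFP pool, under the scanner software's processed signal 2264 and 2262, and with the negative control level subtracted 2158 and 2198. The median probe signal used by median scaling was 339 and 215, beside negative control medians of 207 and 83.3.

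Under median scaling the list medians were 0.82 (Treg signature), 0.0882 (IL-2 and STAT5), 0.52 (immediate early), -1.74 (interferon-stimulated), -1.29 (cell cycle), -1.695 (B cell), -1.65 (neutrophil) and -2.785 (salivary), and those of monocyte (-0.0226), heat shock (-0.23), ribosomal protein (-0.34), pan T cell (-0.51), S100 and annexin (-0.67) and housekeeping genes (-0.77) turned negative, with all genes shifted by -0.46. Under 75th percentile scaling they were 0.64 (IL-2 and STAT5), 1.08 (immediate early), -1.19 (interferon-stimulated), -0.74 (cell cycle), -1.14 (B cell) and -1.09 (neutrophil), and epithelial and stromal genes turned to 0.0891. The processed signal gave 1.63 (Treg signature), 1.19 (immediate early), -1.18 (interferon-stimulated), -1.11 (B cell), -2.39 (neutrophil) and -3.07 (salivary). Negative control subtraction gave 1.54 (Treg signature), -1.12 (B cell), -2.31 (neutrophil) and -3.02 (salivary). The mean over a gene's probes gave 1.25 (Treg signature), 1.06 (immediate early), -0.90 (interferon-stimulated) and -0.46 (cell cycle), and homing receptors turned to 0.0037. Signal in both pools gave 1.36 (immediate early), -1.31 (neutrophil) and -0.67 (salivary), and no filter -1.29 and -0.49 for the last 2. No background subtraction gave -1.31 and normexp -1.57 for neutrophil genes. Removing the trend on probe GC content gave 0.94 (IL-2 and STAT5) and -2.32 (salivary). These 8 lists kept their direction in every alternative; beyond the filters and the scaling, the cause of each move was not tested.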

Other observations

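Heat shock genes, which respond to heat and to cell handling, were partly brighter in the Foxp3-GFP pool: of 14 detected genes 4 were at least 2-fold higher and none lower, with Hspa1b at 1.90 (12.20 and 10.31), Hspa1a at 1.41 and Hsph1 at 1.38, while Hspa8 differed by -0.08. The list median was 0.45, and -0.23 under median scaling. Of 6 detected mast cell and basophil genes 1 was 2-fold higher and none lower. Mcpt4 was detected only in the Foxp3-GFP pool, at least 2.45-fold higher there, Cma1 differed by 0.98, Kit by 0.02 and Hdc by -0.45, and over members detected in both pools the median was 0.0171. Of 25 epithelial, stromal and endothelial genes 10 were below background in both pools, among them the collagen gene Col3a1 and the keratin genes Krt5, Krt8 and Krt19, while Apoe (15.51 and 14.25) was brighter in the Foxp3-GFP pool and Kdr, an endothelial growth factor receptor gene, was lower (-1.82). Of 9 platelet genes 4 were detected, 2 of them in both pools, and none was called 2-fold apart. Those detected in 1 pool, Pf4 among them, give bounds only. Pf4 and Ppbp, which platelets store in quantity, read 7.26 and 7.82 and 6.67 and 7.41, at or under background in at least 1 pool.

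Some of the widest gaps towards the Foxp3-GFP pool belonged to genes with no usual place in Tregs. The cardiac and endodermal factor Gata4 had 13.01 in the Foxp3-GFP pool and 8.84 in the other, the pyrimidine catabolism gene Dpyd 11.98 and 8.16, the vomeronasal receptor gene Vmn1r200 11.96 and 8.52, and the melatonin receptor gene Mtnr1b 12.04 and 8.89. Each rests on 1 detected probe. In the other direction Gdpd3 had 7.93 and 14.12, 73.0-fold apart, and the respiratory chain gene Cox7c 8.84 and 13.43. These 2 also rest on 1 detected probe each.

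Actb, often used as a constant reference, was 10.6-fold lower in the Foxp3-GFP pool (12.92 and 16.32), and its other probe differed by -1.69. The brightest probe is placed by the files on chromosome X, from 148868817 to 148868876 in mm9. Whether it reads Actb itself was not tested. Rpl21 differed by -2.76 with another probe at -0.70. Dimmer probes of Rps21 (-3.26) and Rpl35a (-3.24) differed more, while the brightest probes of these genes were at -0.22 and 0.57. Hprt (0.05), Tbp (0.08) and Gusb (0.01) were level.

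The difference between the pools moved with the base composition of the probe. Over genes detected in both pools split by probe GC content into 4 parts, the median was -0.23 in the lowest and 0.13 in the highest. The share of genes 2-fold apart differed with brightness: of 4 parts by brightness, the one next to the dimmest had 25.9% of genes 2-fold apart, against 13.5% in the dimmest and 11.3% in the brightest.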
